A study of Mus musculus with 12 samples.

Results

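Interferon signaling in a macrophage starts with a handful of genes: interferon beta (Ifnb1), both chains of the type I interferon receptor (Ifnar1, Ifnar2), both chains of the interferon gamma receptor (Ifngr1, Ifngr2) and the Janus kinases bound to cytokine receptors (Jak1, Jak2, Jak3, Tyk2). These 9 genes were chosen by name from 22243 genes, and all 9 were measured, through 14 of 28808 transcripts. RNA sequencing covered bone marrow-derived macrophages (BM-Mɸs) grown in medium containing M-CSF from 6 LysMCre/ErbB4-floxed mice (ErbB4myeKO, KO in the labels) and 6 ErbB4-floxed littermates without the Cre (ErbB4FF, WT in the labels), 1 of each from 6 litters. Mice of both groups carry floxed ErbB4, and Cre is driven by the lysozyme M promoter, which directs deletion to myeloid cells. All 12 cultures were activated to the M1 state by 16 h in IFN-γ (100 U/mL) and a further 6 h with LPS (100 ng/mL), so there was no culture without interferon. Age and sex of the mice are not on the labels.

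The type I receptor binds interferon beta and the interferon alphas. Its IFNAR1 chain carries TYK2 and its IFNAR2 chain carries JAK1, and the kinases phosphorylate STAT factors, which act with IRF9 to turn on antiviral genes. Interferon gamma binds IFNGR1, which carries JAK1, and IFNGR2, which carries JAK2, and also acts through STAT factors. JAK3 serves receptors with the common gamma chain. After LPS, TLR4 signals through TRIF to IRF3 and NF-κB, which act on the Ifnb1 promoter, and the interferon beta released acts back on the same culture.

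The Ifnb1 promoter is shown because Ifnb1 is the ligand of the set and ran from 0.421 to 10.8 TPM between ErbB4FF libraries, and those of Ifngr2 and Jak3 because they were the 2 members lower in libraries labelled ErbB4myeKO in 6 of 6 litters. Sequences are from RefSeq on GRCm38.p6, on the strand of the gene, and all lie before the annotated start. The Ifnb1 stretch is chr4:88522865-88522974 on the minus strand, 180 to 71 bases before the RefSeq start. The Ifngr2 stretch is chr16:91546929-91547038 on the plus strand, 130 to 21 bases before it, and the Jak3 stretch is chr8:71676133-71676295 on the plus strand, 250 to 88 bases before it. Capitals mark matches on either strand to AANNGAAA (the core bound by IRF factors), GGGANNNNCC (an NF-κB motif), TTCNNNGAA (the gamma-activated sequence) or TATAAA.
Ifnb1: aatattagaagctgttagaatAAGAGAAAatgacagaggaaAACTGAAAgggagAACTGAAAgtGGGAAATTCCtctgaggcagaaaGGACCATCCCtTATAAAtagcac
Ifngr2: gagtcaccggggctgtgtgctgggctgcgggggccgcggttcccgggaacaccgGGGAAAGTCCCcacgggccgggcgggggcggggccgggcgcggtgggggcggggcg
Jak3: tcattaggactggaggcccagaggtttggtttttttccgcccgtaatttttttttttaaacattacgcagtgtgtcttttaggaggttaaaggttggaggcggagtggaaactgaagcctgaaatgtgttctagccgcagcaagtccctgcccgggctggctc

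In the 250 bases before the start, the Ifnb1 promoter held 3 matches to AANNGAAA, 2 to GGGANNNNCC and 2 to TATAAA. The Ifngr2 promoter held 2 overlapping matches to GGGANNNNCC, and the Jak3 promoter held no match to any of the motifs. Among the other members, Tyk2 held 1 match to GGGANNNNCC and Ifnar2 held 1 to TTCNNNGAA. The printed Jak3 bases lie before ENSMUST00000051995 and ENSMUST00000110013 (start chr8:71676296). They do not lie directly before ENSMUST00000110012 (start chr8:71677551), the Jak3 transcript that was lower in 6 of 6 litters. The Tyk2 bases lie before ENSMUST00000216874 (start chr9:21131232, mean 0.018 TPM), not directly before the main transcript ENSMUST00000001036 (start chr9:21127346). Over 32851 promoters of the same length, 21.3% held AANNGAAA, 17.6% GGGANNNNCC, 7.02% TTCNNNGAA and 12.4% TATAAA. A match describes letters and is not evidence of binding.

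Values are TPM, a relative abundance that corrects for transcript length and so allows levels of different genes to be set side by side. TPM of the principal transcripts were summed per gene. Ratios are log2 of TPM + 0.5 in the library labelled ErbB4myeKO over that of its ErbB4FF littermate, and adding 0.5 makes the ratios of low genes too small. In this bulk RNA, fewer cells of a type and less RNA per cell cannot be told apart. Erbb4 lay between 0.280 and 0.852 TPM in libraries labelled ErbB4myeKO and between 0.372 and 0.716 TPM in ErbB4FF libraries. It was higher with the ErbB4myeKO label in 4 litters and lower in 2 (exact permutation p = 0.25), so its summed level does not check the labels. Lyz2, the lysozyme M gene that carries the Cre insertion, was lower with the ErbB4myeKO label in litters 1 to 5 (log2 ratios from -1.20 to -0.81) and higher in litter 6 (1.43, exact permutation p = 0.219 over the 6 litters). Litter 6 thus goes against the other litters in this gene, whether its labels hold was not tested, and both groups are named throughout as labelled. Without litter 6 the mean log2 ratio was -0.22 for Ifngr2, -0.55 for Jak3, 0.73 for Tyk2 and 0.65 for Ifnb1, and the median of the type I interferon targets described below was -0.25. Litter 6 itself had a log2 ratio of -0.06 for Ifngr2 and -0.33 for Jak3, so that the counts of 6 of 6 litters given for them are 5 of 5 without it, and a higher level in 1 of 6 if its labels were exchanged. Macrophage markers were high (Adgre1 between 662 and 1060 TPM), 9 of 10 lymphocyte markers stayed under 1 TPM in all 12 libraries, and so did 6 of 7 erythroid markers. The summed level of 11 neutrophil markers was between 41.3 and 375 TPM in libraries labelled ErbB4myeKO and between 42.5 and 186 TPM in ErbB4FF libraries, mostly S100a8 and S100a9, while Ly6g reached at most 0.448 TPM and Retnlg was listed at 0.

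Both libraries of litter 5 stood apart from the rest. Genes with transcripts over 4000 bases were low against genes with transcripts under 1000 bases there, by a median log2 difference of -1.21 (ErbB4myeKO) and -1.32 (ErbB4FF), against -0.43 to 0.27 in the other 10 libraries. Values without litter 5 are therefore given beside several of the results it touches.

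By mean TPM over the 12 libraries, the members ranked Jak2 (218), Ifngr2 (105), Jak1 (81.7), Ifnar1 (41.9), Ifnar2 (23.8), Ifngr1 (19.4), Jak3 (7.16), Ifnb1 (6.03) and Tyk2 (5.49). Jak2, the kinase of the IFNGR2 chain, lay above 94.5% of the 8780 genes tested, and Tyk2 above 36.6%. Neighbours in this order were compared over the litters by an exact two-sided permutation test, with p-values adjusted over 8 pairs. Order and pairs were picked from the same values. The p-values therefore describe how steadily the litters kept the order and are no independent support for it. The steps from Ifngr2 down to Jak3 held in 6 of 6 litters, each with exact p = 0.0312, the smallest that 6 litters allow, and adjusted p = 0.05. The smallest of these steps was Ifnar2 over Ifngr1, a log2 difference in level of 0.30 ± 0.21 (SD, n = 6 litters). Ifnar2 is counted through 1 of its 5 protein-coding transcripts, so its place in the order is uncertain.
Jak2 exceeded Ifngr2 in 5 of 6 litters (log2 difference 0.98 ± 0.72 SD, exact permutation p = 0.0625, adjusted p = 0.0833). Litter 5 was the exception, and without it the log2 difference was 1.24. With the highest transcript of each gene alone, Jak2 fell below Ifngr2 (-0.35). Jak3 and Ifnb1 did not differ beyond their spread (0.36 ± 1.29 SD, exact permutation p = 0.562), nor did Ifnb1 and Tyk2 (1.01 ± 2.25 SD, exact permutation p = 0.281, adjusted p = 0.321). The last difference was 1.67 without litter 5, the only litter in which the mean TPM of the littermates was higher for Tyk2 than for Ifnb1, and 0.35 without litter 3.

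**Figure D1:**
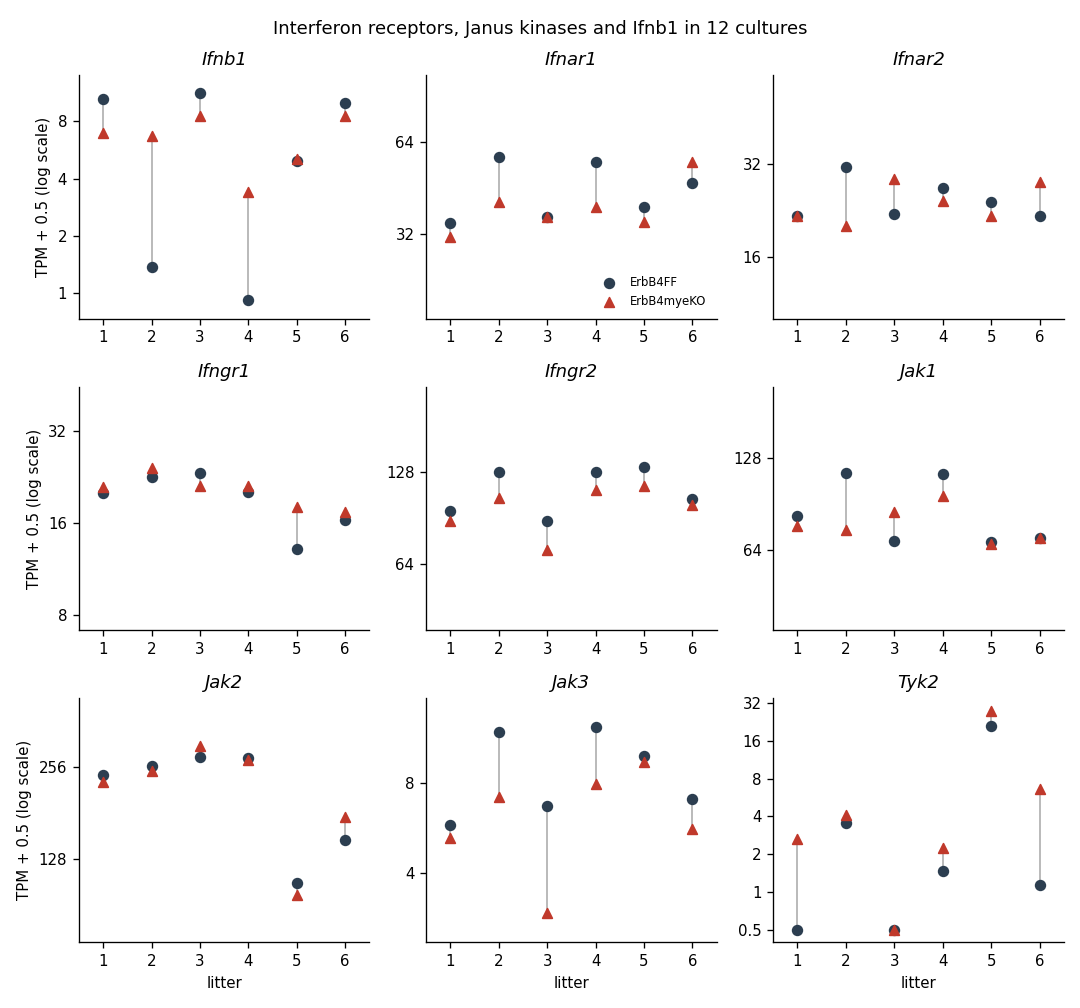
TPM + 0.5 on a log scale (y axes, which differ between panels) of the 9 members in each of the 12 cultures, by litter (x axes), with grey lines joining littermates. Triangles are libraries labelled ErbB4myeKO and circles ErbB4FF. Ifngr2 and Jak3 have the triangle below the circle in 6 of 6 litters, Ifnb1 is low in the ErbB4FF libraries of litters 2 and 4, and Tyk2 is highest in litter 5.

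No member passed an adjusted p of 0.05 between the genotypes, and neither did any of the 8780 genes tested (0%, limma with litter as a block, smallest adjusted p = 0.603). At an unadjusted p under 0.05, 2 of the 9 members were lower in libraries labelled ErbB4myeKO (Ifngr2, Jak3), where 4.38% of all genes were, and 1 was higher (Tyk2), where 3.83% of all genes were. Lower in 6 of 6 litters were 2 of the 9 (2.31% of all genes), and higher in 6 of 6 litters were 0 (2.51% of all genes). The median log2 ratio of the 9 members was -0.03, and that of all genes tested was 0.00 to 2 decimals (-0.00068).

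Ifnb1 (chr4:88522025-88522774, minus strand, GRCm38) is a gene with a single transcript of 750 bases. In libraries labelled ErbB4myeKO its level in litters 1 to 6 was 6.48, 6.19, 8.08, 2.93, 4.60 and 8.05 TPM, and in the ErbB4FF littermates 10.04, 0.879, 10.8, 0.421, 4.46 and 9.47 TPM. The ErbB4FF libraries of litters 2 and 4 were far below the rest, and the ranges of the groups overlap.
The means were nearly equal, 6.06 ± 2.01 TPM (SD, n = 6) with the ErbB4myeKO label and 6.00 ± 4.70 TPM (SD, n = 6) for ErbB4FF. Within litters the log2 ratio was 2.28 in litter 2 and 1.90 in litter 4, and between -0.60 and 0.04 in the other 4. The mean log2 ratio was 0.50, with a 95% interval from -0.49 to 1.49 (limma p = 0.274, adjusted p = 0.724, exact permutation p = 0.469). Without litter 2 it was 0.15 and without litter 4 it was 0.22. The authors' mean normalized count for Ifnb1, averaged by them on a log scale, was 16.7, so these values rest on few reads.

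Other interferon ligands were at or near 0 in the principal transcripts, which with no read counts is not a level of 0 for a gene. Of 20 (interferon alphas, Ifne, Ifnk, Ifnz, Ifnab, Ifng and the lambda interferons), 15 were listed at 0 in all 12 libraries, 19 stayed under 1 TPM throughout and none reached the mean of 1 TPM needed for the test. The exception, named after its values were seen, was Ifng, between 0 and 4.52 TPM, although these cultures had been given IFN-γ protein. The genes on the route from LPS to Ifnb1 were all measured and tested, 23 of 23. Of these 1 had an unadjusted p under 0.05, Irf7, a transcription factor of the interferon genes that is itself induced by interferon (log2 ratio -0.36 ± 0.43 SD over litters, lower in 5 of 6, limma p = 0.0474, adjusted p = 0.603, exact permutation p = 0.0938). Of all genes tested, 4.38% were lower at that threshold. The median log2 ratio of this list was -0.05.

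Both type I receptor chains and Ifngr2 lie in a cluster on chromosome 16, with Ifnar2 (chr16:91372783-91405589), Il10rb (chr16:91406164-91425834), Ifnar1 (chr16:91485238-91507441) and Ifngr2 (chr16:91547072-91565623) within 193 kb on the plus strand. Ifnar1 in libraries labelled ErbB4myeKO was at 30.9, 40.2, 36.0, 38.8, 34.5 and 54.6 TPM in litters 1 to 6, and in ErbB4FF littermates at 34.3, 56.9, 36.1, 54.8, 39.0 and 46.5 TPM. It was lower in 5 of 6 litters and higher in litter 6, and the groups overlap. Its ratio averaged -0.18 on the log2 scale, with a 95% interval from -0.43 to 0.07 (limma p = 0.134, adjusted p = 0.644, exact permutation p = 0.219). Without litter 2 or litter 4 it was -0.12, and without litter 6 it was -0.26.
Ifnar2 was at 21.2, 19.6, 28.2, 23.7, 21.2 and 27.4 TPM with the ErbB4myeKO label and at 21.2, 30.8, 21.6, 26.4, 23.6 and 21.3 TPM in ErbB4FF libraries. Litters pointed both ways, and the mean log2 ratio was -0.03, with a 95% interval from -0.36 to 0.29 (limma p = 0.818, adjusted p = 0.947, exact permutation p = 0.875). Without litter 2 it was 0.09, the opposite sign. Only 1 of the 5 protein-coding transcripts of Ifnar2 is among the principal transcripts, and 9.4% of its stretches of 31 bases also occur in another gene, so its level is uncertain.

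The interferon gamma receptor chains stood at unequal levels. Ifngr1 (chr10:19591949-19610229, plus strand), the chain that binds the ligand, was at 20.4, 23.7, 20.6, 20.7, 17.6 and 16.9 TPM in libraries labelled ErbB4myeKO and at 19.6, 22.2, 22.9, 19.8, 12.6 and 15.9 TPM in ErbB4FF littermates. It was higher in 5 of 6 litters by small margins, except in litter 5, and the groups overlap. On average the log2 ratio was 0.10, with a 95% interval from -0.10 to 0.31 (limma p = 0.282, adjusted p = 0.727, exact permutation p = 0.219), and without litter 5 it was 0.03.
Ifngr2, the chain that brings JAK2 to the receptor, was at 87.7, 104, 70.7, 111, 114 and 99.4 TPM with the ErbB4myeKO label and at 94.9, 127, 88.1, 127, 132 and 104 TPM in ErbB4FF littermates. Each ErbB4myeKO value lay below that of its littermate, while the group ranges overlap. The means were 97.9 ± 16.3 TPM (SD, n = 6) and 112 ± 18.9 TPM (SD, n = 6). The log2 ratio was between -0.31 and -0.06 in the 6 litters, with a mean of -0.20 (SE 0.06, a fold of 0.873). Its unadjusted limma p was 0.0103, rank 93 of 8780 genes, but its adjusted p was 0.603 and its exact permutation p was 0.0312, the smallest that 64 swaps of genotype within litters allow. Without litter 5 the ratio was -0.19. Without the litter block it was equally large but its unadjusted p was 0.224.
Il10rb, the neighbour of Ifnar2 that codes for a chain of the interleukin 10 and interferon lambda receptors, was also lower in 6 of 6 litters (log2 ratio -0.13 ± 0.10 SD over litters, limma p = 0.0587, adjusted p = 0.603, exact permutation p = 0.0312). It was named after its values were seen.

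The balance of the chains was tested as a ratio within each library, 4 ratios in all. Ifngr1 over Ifngr2 was a log2 of -2.26 ± 0.34 (SD, n = 6) in libraries labelled ErbB4myeKO and -2.55 ± 0.48 (SD, n = 6) in ErbB4FF libraries. It was higher with the ErbB4myeKO label in 6 of 6 litters, by 0.30 ± 0.20 (SD over litters, exact permutation p = 0.0312, adjusted over the 4 ratios p = 0.125), and without litter 5 by 0.23. Ifnar1 over Ifnar2 differed by -0.15 ± 0.20 (SD over litters, exact permutation p = 0.125, adjusted p = 0.167). For Jak1 over Jak2 the difference was -0.13 ± 0.28 (SD over litters, exact permutation p = 0.344), and it was -0.04 without litter 2 and -0.19 without litter 3. Jak1 over Tyk2 was lower in 5 of 6 litters, by a log2 of -1.14 ± 1.16 (SD over litters, exact permutation p = 0.0625, adjusted p = 0.125), and without litter 5 by -1.285. None of the 4 passed an adjusted p of 0.05.

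**Figure D2:**
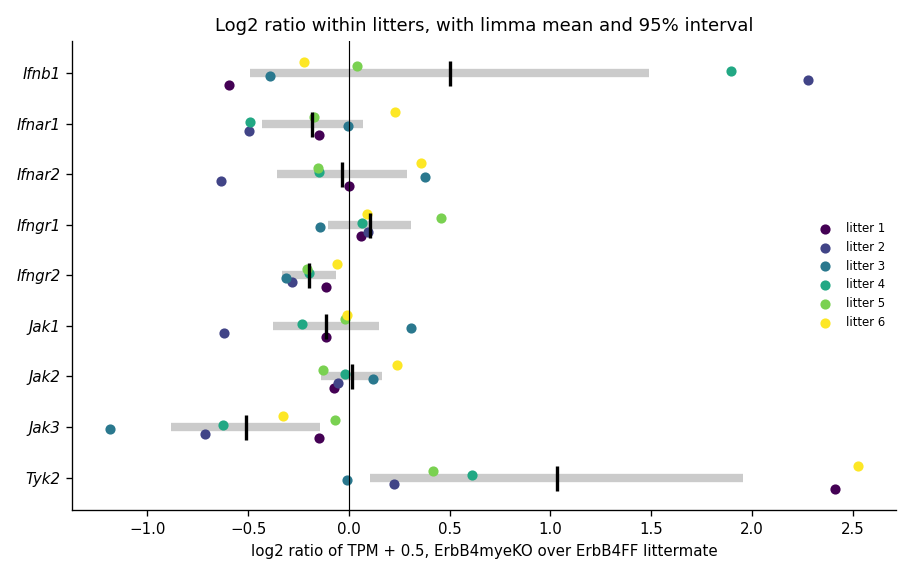
Log2 ratio of TPM + 0.5, ErbB4myeKO over ErbB4FF littermate (x axis), for each member (y axis). Points are litters 1 to 6, vertical ticks are means and grey bars are 95% intervals of limma. The bars of Ifngr2 (-0.33 to -0.06), Jak3 (-0.88 to -0.14) and Tyk2 (0.11 to 1.95) do not reach 0 before adjustment over all genes, and Ifnb1 has 2 litters far to the right.

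Among the kinases, Jak1 (chr4:101152367-101265282, minus strand), used by both interferon receptors, was at 76.2, 73.8, 84.7, 95.8, 66.7 and 69.4 TPM with the ErbB4myeKO label and at 82.4, 114, 68.3, 113, 67.6 and 69.8 TPM in ErbB4FF libraries. The ErbB4FF libraries of litters 2 and 4, lowest in Ifnb1, were highest in Jak1 and also the 2 highest in Ifnar1 and Jak3. The mean log2 ratio of Jak1 was -0.11, with a 95% interval from -0.38 to 0.15 (limma p = 0.345, adjusted p = 0.761, exact permutation p = 0.406). Without litter 2 it was -0.01 and without litter 3 it was -0.20.

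Jak2 (chr19:29251828-29313080, plus strand) hardly differed in its sum and differed more in its transcripts. The sum was 228, 249, 300, 270, 97.4 and 175 TPM with the ErbB4myeKO label and 240, 258, 275, 273, 107 and 148 TPM in ErbB4FF littermates. Litter 5 was lowest in both groups. Summed, its mean log2 ratio was 0.02, with a 95% interval from -0.14 to 0.17 (limma p = 0.823, adjusted p = 0.948, exact permutation p = 0.875), and without litter 5 it was 0.04.
Both principal transcripts code for the same coding sequence. ENSMUST00000065796, of 5030 bases, has an additional noncoding exon of 83 bases (chr19:29252437-29252519) before the coding sequence, which ENSMUST00000025705, of 4947 bases, lacks. Of these 2 transcripts, 111 and 28 stretches of 31 bases respectively do not occur in the other, but 99.3% and 100.0% of all their stretches occur in some other annotated Jak2 transcript, so the split between them is uncertain.
The transcript with the exon was at 137, 135, 209, 155, 9.78 and 96.2 TPM in libraries labelled ErbB4myeKO and at 120, 83.2, 152, 159, 7.41 and 68.4 TPM in ErbB4FF littermates. In litter 5 it was far below all other libraries in both groups. Its log2 ratio was 0.36 (SE 0.10), higher in 5 of 6 litters (limma p = 0.00829, adjusted p = 0.685, exact permutation p = 0.0625).
The transcript without the exon was at 91.8, 114, 90.4, 115, 87.6 and 78.4 TPM with the ErbB4myeKO label and at 120, 174, 123, 114, 99.2 and 79.3 TPM in ErbB4FF littermates. Its log2 ratio was -0.27 (SE 0.10), lower in 5 of 6 litters (limma p = 0.0271, adjusted p = 0.685, exact permutation p = 0.0625). Of 10085 transcripts tested, 3.12% were higher and 3.6% were lower at an unadjusted p under 0.05.

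The share of Jak2 TPM held by the transcript with the exon, a measure chosen after these values were seen, was 51.1% ± 20.9 (SD, n = 6) with the ErbB4myeKO label and 41.5% ± 19.2 (SD, n = 6) for ErbB4FF. It was higher in 5 of 6 litters, by 9.56 ± 8.09 percentage points (SD over litters, exact permutation p = 0.0625). The difference was 21.9 points in litter 2, 14.4 in litter 3 and -0.85 in litter 4. Without litter 5, where the share was 10.04% and 6.95%, the difference was 10.8 points. As the parts of a sum, the transcripts are not independent of each other. The log2 measure of long against short transcripts was 0.03, 0.23, 0.27, 0.15, -1.21 and -0.21 with the ErbB4myeKO label in litters 1 to 6. In ErbB4FF littermates it was 0.04, 0.23, 0.13, 0.09, -1.32 and -0.43, and its part in the share was not tested.

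**Figure D3:**
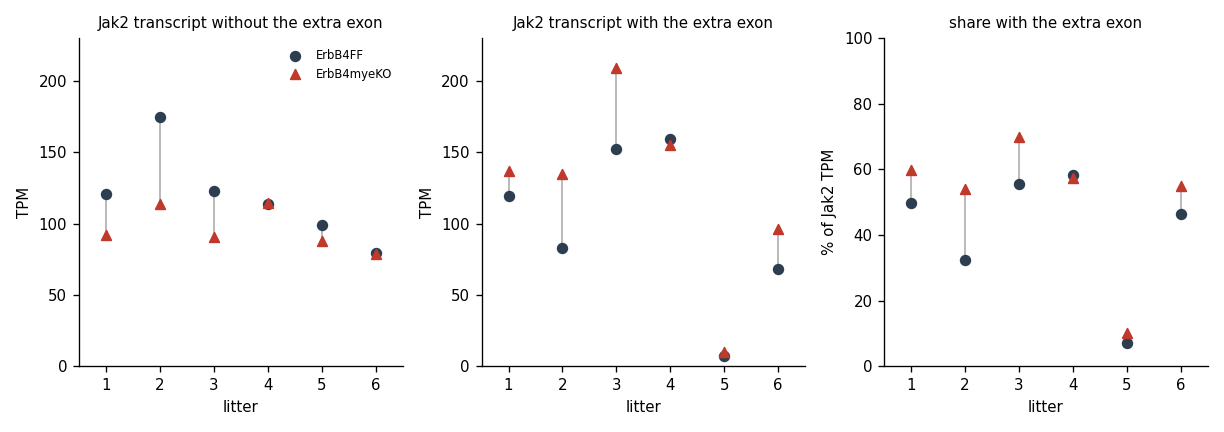
TPM (y axis) of the Jak2 transcripts without and with the extra noncoding exon, and the percentage of Jak2 TPM in the one with it (right panel), by litter (x axes). Triangles are libraries labelled ErbB4myeKO, circles ErbB4FF, and grey lines join littermates. The share is higher with the ErbB4myeKO label in 5 of 6 litters, and is 10.04% and 6.95% in litter 5 against 32.3% or more elsewhere.

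Jak3 (chr8:71676296-71690575, plus strand), the kinase of the common gamma chain, was at 4.74, 6.69, 2.45, 7.46, 8.88 and 5.14 TPM with the ErbB4myeKO label and at 5.32, 11.3, 6.21, 11.8, 9.35 and 6.57 TPM in ErbB4FF littermates. It was lower in 6 of 6 litters, most in litter 3 (log2 ratio -1.19) and least in litter 5 (-0.07), and the group ranges overlap. The mean log2 ratio was -0.51 (SE 0.16, a fold of 0.701), with limma p = 0.0133, adjusted p = 0.603 and exact permutation p = 0.0312. Without litter 3 it was -0.38 and without litter 5 it was -0.60.
Of its 3 principal transcripts, ENSMUST00000110012 had a log2 ratio of -1.09 (SE 0.47, limma p = 0.052, adjusted p = 0.685, exact permutation p = 0.0312) and was listed at 0 in the ErbB4myeKO library of litter 3. Its ratio was -3.75 in that litter and between -0.95 and -0.18 in the others. ENSMUST00000051995 had a ratio of 0.36 (SE 0.44, limma p = 0.444, adjusted p = 0.834, exact permutation p = 0.562), and ENSMUST00000110013 reached at most 0.49 TPM. The ratio of ENSMUST00000051995 was 2.56 in litter 3 and between -1.19 and 0.32 in the other litters, so its positive mean rests on litter 3. In litter 3 the ErbB4myeKO library had 2.45 TPM of ENSMUST00000051995 alone and the ErbB4FF library 6.21 TPM of ENSMUST00000110012 alone, and these transcripts share most of their sequence. Of the stretches of 31 bases of ENSMUST00000051995, 9.4% also occur in another gene.
Il2rg, the common gamma chain with which JAK3 works, was at 618 and 662 TPM in the group means, a log2 ratio of -0.10 (limma p = 0.131, exact permutation p = 0.0938).

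Tyk2 (chr9:21104068-21131243, minus strand), the kinase of IFNAR1, had the lowest mean of the members. It was at 2.16, 3.62, 0, 1.75, 27.3 and 6.12 TPM with the ErbB4myeKO label and at 0, 3.03, 0.00335, 0.971, 20.3 and 0.647 TPM in ErbB4FF littermates. Litter 5 was far above the rest in both groups, and 3 libraries were at or near 0. The mean log2 ratio was 1.03 (SE 0.40), higher in 5 of 6 litters, with limma p = 0.0332, adjusted p = 0.603 and exact permutation p = 0.0625.
That mean came mostly from litters 1 (2.41) and 6 (2.53), and without either its unadjusted p was 0.0898 or 0.0916. Without litter 5 the ratio was 1.15. The authors' mean normalized count for its main transcript was 27.2, and other coding transcripts of Tyk2 are not among the principal ones, so a level near 0 here is not a level of 0 for the gene.

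Downstream of the members, 6 STAT genes and Irf9 were tested. At an unadjusted p under 0.05, 0 were higher and 2 of the 7 were lower (4.38% of all genes). These were Stat5b (log2 ratio -0.27, limma p = 0.0227), which serves growth factor and interleukin receptors, and Stat2 (-0.19, limma p = 0.0455), which acts with IRF9 at type I targets, each lower in 5 of 6 litters with adjusted p = 0.603 and exact permutation p = 0.0625. The median log2 ratio of the 7 was -0.15. Among 34 other receptor chains that use Janus kinases, 20 were tested. At that threshold 1 was higher (3.83% of all genes) and 1 was lower (4.38%). Il3ra, the interleukin 3 receptor alpha chain, was higher in 6 of 6 litters (log2 ratio 0.67 ± 0.65 SD, limma p = 0.0189, exact permutation p = 0.0312), and Il4ra, the interleukin 4 receptor alpha chain, was lower in 5 of 6 (-0.59 ± 0.62 SD, limma p = 0.0268, exact permutation p = 0.0625). Both had an adjusted p of 0.603. Of 20 restraints on Janus kinase signaling (SOCS and PIAS proteins, phosphatases, Usp18), 18 were tested and 0 passed an unadjusted p of 0.05, with a median log2 ratio of 0.00111. Socs1 was at 37.9 and 36.5 TPM and Socs3 at 432 and 470 TPM in the means of ErbB4myeKO and ErbB4FF.

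Type I interferon targets are genes turned on through IFNAR1 and IFNAR2. Of 21 on the list, 20 were tested, and all 20 had a mean log2 ratio below 0, where 50.2% of all genes did. The median was -0.28. At an unadjusted p under 0.05, 8 of the 20 were lower (4.38% of all genes) and 0 were higher (3.83%), and 0 passed the adjusted threshold. Lower in 6 of 6 litters was 1 of the 20 (2.31% of all genes). Turned on through the same receptor, these genes are not independent of each other, so their counts are not separate results. Irf7 and Usp18 are also counted in lists above. Those with the smallest p were Oas1a (log2 ratio -0.26), a sensor of double-stranded RNA, Rtp4 (-0.28), Ddx58 (-0.28), which codes for the RNA sensor RIG-I, and Cmpk2 (-0.49), a mitochondrial kinase, with limma p between 0.0245 and 0.0309, adjusted p = 0.603 and exact permutation p between 0.0312 and 0.0938. The 8 became 10 without litter 5. They became 2 without litter 2, 4 without litter 4, 1 without litter 6, 2 with the total of principal transcripts made equal and 1 without the litter block. Without litter 2, 18 of the 20 had a mean log2 ratio below 0, at a median of -0.19.
Interferon gamma targets had a median log2 ratio of -0.05 over 20 tested. At an unadjusted p under 0.05, 0 were higher (3.83% of all genes) and 3 were lower (4.38%). These were Psmb8 (-0.22, limma p = 0.0147) and Psmb9 (-0.20, limma p = 0.0345), subunits of the immunoproteasome, and Cxcl10 (-0.18, limma p = 0.0214), a chemokine for T cells that type I interferon also induces, with exact permutation p = 0.0625, 0.0312 and 0.0312 and adjusted p = 0.603 each.

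By litter, the median log2 ratio of the type I targets was -0.09, -0.80, -0.07, -0.19, 0.03 and -0.49 in litters 1 to 6. In litters 2 and 4, where Ifnb1 was far higher with the ErbB4myeKO label than in the littermate, the medians of the targets were below 0. Litter 6 had the second lowest median at an Ifnb1 ratio of -0.22. The medians of the interferon gamma targets lay between -0.20 and 0.00 in the 6 litters, over genes that went both ways (8 higher and 12 lower on average), and the lists were not tested against each other. Ifnb1 was measured at 1 time, 6 h after LPS, so no earlier level is in these values.
Fcgr1, a macrophage marker and Fc receptor that interferon gamma induces, was lower in 6 of 6 litters (log2 ratio -2.20 in litter 2, -1.15 in litter 4 and between -0.70 and -0.18 in the others, -0.86 on average, limma p = 0.00987, adjusted p = 0.603, exact permutation p = 0.0312). Of the 8 macrophage markers 4 were higher and 4 lower on average, and Mertk was higher in 6 of 6 litters. Xcr1, a marker of dendritic cells, was at log2 ratios of 1.32 in litter 2 and 1.49 in litter 4 (0.63 on average, limma p = 0.028, adjusted p = 0.603, exact permutation p = 0.0938), while Clec9a, a marker of the same cells, was at -3.14 and 0.06 in those litters and higher in 5 of 6 (0.10 on average). Flt3 and Zbtb46, which define these cells, reached at most 0.394 TPM and Siglech and Cd209a were listed at 0. The summed level of 8 dendritic cell markers, mostly Ccr7, was between 47.8 and 128 TPM with the ErbB4myeKO label and between 35.2 and 97.2 TPM in ErbB4FF libraries, and of the 4 tested (Xcr1, Clec9a, Ccr7, Btla) 4 were higher on average (median 0.33), and 1 was higher and 0 were lower at an unadjusted p under 0.05. Camp, a neutrophil granule gene, was higher in 6 of 6 litters (0.45 on average, limma p = 0.0369, adjusted p = 0.603, exact permutation p = 0.0312). Of the 5 neutrophil markers tested, 3 were higher and 2 lower on average, the latter Ngp, another granule gene (-0.36), and S100a9 (-0.24). Markers other than Fcgr1, Xcr1 and Camp were named after their values were seen. The part of these cell types in the members' values was not tested.

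**Figure D4:**
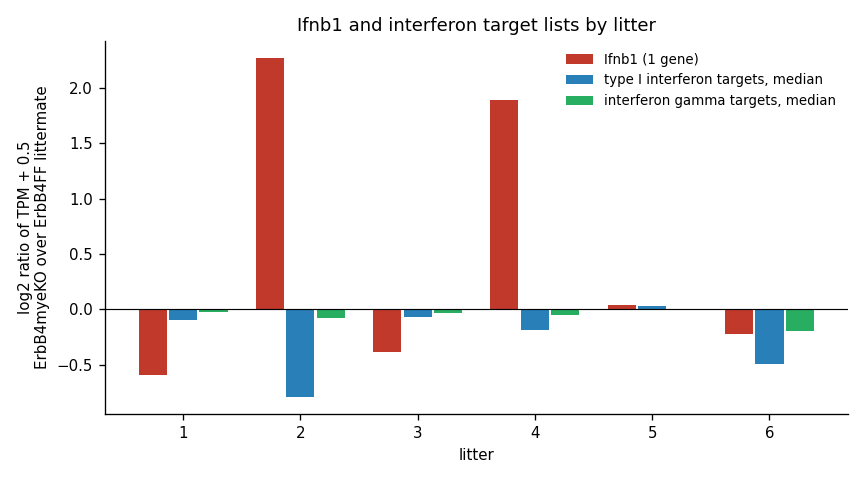
Log2 ratio of TPM + 0.5, ErbB4myeKO over ErbB4FF littermate (y axis), by litter (x axis), for Ifnb1 and for the medians of 20 type I interferon targets and 20 interferon gamma targets. Each bar is 1 pair of littermates and starts at 0. Ifnb1 is at 2.28 in litter 2 and 1.90 in litter 4, where the median of the type I targets is -0.80 and -0.19.

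Members also varied together across the 12 libraries, which is given as a description, since littermates, library preparation and the state of litter 5 are shared by the points. Ifngr2 and Jak3 followed each other most closely of all member pairs (Pearson r = 0.95), and each was the gene most like the other among 8780 genes. Next among the member pairs were Ifngr1 and Jak2 (r = 0.82). Ifnb1 ran opposite to Jak1 (r = -0.81) and Jak3 (r = -0.72), and Jak2 opposite to Tyk2 (r = -0.77). The genes outside the members with the closest pattern were Nsun2 and Xcr1 for Ifnb1 (r = 0.92 each), Sos1 for Ifnar1 (0.90), Ugcg for Ifnar2 (0.94), Usp54 for Ifngr1 (0.94), Cnp for Ifngr2 (0.95), Prkx for Jak1 (0.95), Kat6a for Jak2 (0.99), Usf1 for Jak3 (0.94) and Set for Tyk2 (0.93). Others among the 3 closest were Rrp15 for Ifnb1, Arid3a and Rhoq for Ifnar1, Dck for Ifnar2, Zfp592 and Prpf8 for Ifngr1, Usf1 for Ifngr2, Ifi207 and Tifa for Jak1, Cep350 and Tab2 for Jak2, Adprm for Jak3, and Vps26b and Clns1a for Tyk2. Litter 5, where Jak2 and Kat6a were both lowest, carries much of the span of the Jak2 values, which run from 97.4 to 300 TPM.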

How the data were processed

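RNA of 12 M1-activated BM-Mɸ cultures was sequenced. The authors ran kallisto on the reads and deposited the TPM of principal transcripts. They also deposited the mean natural log of normalized counts from sleuth, whose exponential is quoted as a mean normalized count. Their p-values, q-values and fold columns were not used. The versions and the transcriptome release are not given in the sources used here. Of 29213 lines, 405 repeat a transcript and were counted once. Positions come from GENCODE M21 (GRCm38). TPM carry no depth per library, and the spread between litters sets the precision.

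Here, the TPM of a gene's transcripts were added up. Genes averaging 1 TPM or more (8780) were kept, and log2(TPM + 0.5) was modelled in R 4.3.3 by limma 3.58.1 (lmFit, then eBayes using a trend). Litter entered as a block, after the study's methods. Sex, which those methods also adjust for, is not on the labels. Adjustment was by Benjamini-Hochberg over all genes or transcripts tested. Single values and ratios were tested two-sided by exact permutation, swapping genotypes inside each litter (64 ways), in Python 3.11.15 (numpy 2.4.6, pandas 2.3.3). Figures were drawn with matplotlib 3.10.9. The series' design pairs 1 mouse of each genotype per litter, and littermates' deviations from the group means correlated at 0.273 to 0.774. The margin over the closest ErbB4FF library of another number was small in litter 4 (0.409 against 0.379) and litter 2 (0.273 against 0.214). The fit was tested on simulated data. Members, lists and tests were chosen with earlier results of these data known. Named genes are the members, up to 4 genes per list with the smallest unadjusted p under 0.05, and the 3 genes most correlated with each member, some of which are not reported here. Others are said to be chosen after their values were seen, or are given as markers, partners or restraints. Alternatives were no block, a Y-linked expression covariate standing in for sex, other pseudocounts, filters and scalings, limma without trend, the highest transcript alone and each litter left out.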

Additional observations from a re-analysis of the deposited data

Results flagged for a closer look

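Tyk2 in litter 5 lay far from the other litters in both groups. It was 27.3 TPM in the library labelled ErbB4myeKO, where the other 5 reached at most 6.12 TPM, and 20.3 TPM in the ErbB4FF library, where the other 5 reached at most 3.03 TPM. The gap to the nearest library was 0.776 and 0.851 of the range, above Dixon's 95% limit for 6 samples. These were 2 of 35 sets of 6 values examined, and chance alone passes this limit in about 1 set of 20. Both libraries are littermates, and litter 5 also stood apart in its long transcripts. The part of that in the Tyk2 values was not tested.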

How the results depend on the processing

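No member passed an adjusted p of 0.05 under any of the 16 alternatives (smallest 0.499). Ifngr2 stayed between -0.22 and -0.17 and Jak3 between -1.09 and -0.38, each with an unadjusted p under 0.05 in 15 of 16, and Tyk2 between 0.73 and 1.495, in 11 of 16. Ifnar2 ran from -0.12 to 0.0876 and Jak2 from -0.0300 to 0.0442 with a litter left out, and Jak2 was -0.00711 with the stand-in for sex. That covariate differs by at most 0.0921 between littermates, so the litter block already holds most of it and its fits are no adjustment for sex.

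Without the replicate block, 0 members passed an unadjusted p of 0.05 instead of 3, 75 genes instead of 721, and 1 type I target instead of 8. The block changed no adjusted call. Leaving out a litter gave 413 to 864 genes, 2 to 3 members and 1 to 10 type I targets. Lower type I targets numbered 2 with the stand-in for sex, 4 with no filter, 2 with the principal total made equal, 4 without trend and 5 with the highest transcript alone. With that transcript alone, Jak2 over Ifngr2 reversed to -0.35 and Jak3 over Ifnb1 to -0.22, and Jak2 and Jak3 then stand for 1 of several transcripts. Jak3 over Ifnb1 ran from -0.0152 to 0.636 with a litter left out. Where no construction of the alternative shows it, the cause was not tested. Without litter 3, 1 gene of 8850 passed an adjusted p of 0.05 (Igkv1-88), which is no member.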
